A study of Mus musculus with 18 samples.

Results

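A set of 76 array probes fell late in 3 mouse embryonic stem cell lines after the cytokine LIF was taken away. They are 76 of the 25030 probes in the deposited value table. The probes were selected on their measured changes. A probe was taken when its mean had fallen 2.38-fold or more after 120 h without LIF in each of Oct4 VP2, Oct4 and ZHBTc4, while its 48 h change, averaged over the lines, lay between -0.8 and 0.8 on the log2 scale. Both changes are measured from the same line's cultures with LIF, and the values that chose the probes come from all 18 arrays. Within-line changes at 48 h and 120 h are therefore a description and support nothing. The files carry probe identifiers and 60-base probe sequences without gene names, so each probe is named by its identifier and stem cell markers could not be looked up.

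All cultures were embryonic stem cells of strain 129/Ola. ZHBTc4 is labelled as a gene knock-in line and carries an oct4 transgene under the control of tetracycline, which shuts it off. Its labels mention no tetracycline. Oct4 VP2 was made from ZHBTc4, grown with tetracycline, by random integration of an electroporated oct4-vp16 construct, and it was kept under puromycin (2 μg per ml). The line Oct4, from the same parent, received a moct4 construct and was kept in the same way, except that its cultures with LIF are labelled as a gene knock-in with no mention of tetracycline or puromycin. Flasks received 250000 cells (Oct4 VP2) or 200000 cells (Oct4 and ZHBTc4). Cultures with LIF were harvested 24 h after plating. In the others LIF was withdrawn at 24 h after plating and RNA was taken 48 h or 120 h later, so LIF and time in culture changed together and cannot be told apart. Each of the 9 groups of line, LIF and time has 2 arrays, which the series description calls independent clones. Bulk RNA was measured, so fewer cells with a transcript and less of it per cell cannot be told apart.

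LIF signals through a receptor that activates the transcription factor STAT3, and it keeps mouse embryonic stem cells self-renewing in culture. Oct4 (Pou5f1) is a POU-domain transcription factor whose level must stay within limits for these cells to keep their state. VP16 is a viral transcription factor, and its activation domain, when joined to a DNA-binding factor, gives a strong activator. Once LIF is removed, transcripts of the self-renewing state are lost at different times, some soon and some only as differentiation goes on.

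On each array the sample carried Cy3 and a common mouse reference RNA, pooled from 11 cell lines, carried Cy5. A level is the log2 ratio of sample over reference. Ratios of the scanner software's processed signals, which the value table also holds, are called processed ratios here. Ratios recomputed with a normexp background correction and loess within each array are called loess ratios, and all tests were run on these. Between 62.8% and 75.2% of probes were well above background in Cy3 per array, and 41 of the 76 members were so on all 18. There were 5 slides and 2 scan sessions. The second session held 6 arrays, namely both groups with LIF of Oct4 and ZHBTc4 and replicate 2 of each ZHBTc4 group without it, and the first session held the others. The replicate arrays of Oct4 VP2 stood far apart for 14 members at every time, and results that rest on those members are given with that below.

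The probes whose sequences matter most for what follows are those with the largest falls and those that differed most between lines. Sequences run 5′ to 3′ as the scanner files give them. For Z00031177-1, which fell furthest on average, the second 30 bases are printed, with the hexamer AATAAA in capitals. In the other probes below nothing is in capitals.
Z00031177-1: ttaAATAAAttttgtgtgtttgtttgcagc
Z00070838-1: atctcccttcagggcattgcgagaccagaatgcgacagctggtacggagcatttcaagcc
Z00040368-1: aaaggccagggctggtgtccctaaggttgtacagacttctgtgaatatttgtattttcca
Z00013986-1: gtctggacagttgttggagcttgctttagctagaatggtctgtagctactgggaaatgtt
Z00071412-1: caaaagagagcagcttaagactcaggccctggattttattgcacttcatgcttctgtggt
Z00011953-1: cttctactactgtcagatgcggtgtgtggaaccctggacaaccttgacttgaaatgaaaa

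A second group of 7 members is shown because pairs of them share a stretch of bases on the same strand. Capitals mark the stretch shared with another member of the same pair or chain. Z00034921-1 shares a different 12-base run with each of Z00076164-1 and Z00075719-1, and Z00072669-1 and Z00054447-1 share a run of 29 bases.
Z00034921-1: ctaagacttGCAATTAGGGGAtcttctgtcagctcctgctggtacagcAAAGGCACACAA
Z00076164-1: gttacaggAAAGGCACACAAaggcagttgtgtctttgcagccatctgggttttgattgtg
Z00075719-1: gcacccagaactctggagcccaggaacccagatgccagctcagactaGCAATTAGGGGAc
Z00072669-1: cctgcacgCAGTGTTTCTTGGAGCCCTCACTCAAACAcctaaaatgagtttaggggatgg
Z00054447-1: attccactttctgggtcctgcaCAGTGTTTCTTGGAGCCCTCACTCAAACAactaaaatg
The last pair shares 34 bases and is printed as a stretch of 30 bases from each. Over the whole probe Z00051485-1 departs from Z00077050-1 by the substitutions C14T and C26G, counted from the 5′ end.
Z00077050-1: ttgggaaccTTTGATTTAATAAACATGAAA
Z00051485-1: ttgggaacgTTTGATTTAATAAACATGAAA
Each of the 4 shared runs occurs, on the strand shown, in 2 of the array's 42006 probes, which are the 2 members named. Members that share a run of 29 or 34 bases may bind some of the same transcripts, so they may not be independent of each other. A shared run of 12 bases does not show this. The counts in this report take each of the 7 members as 1 member. How much signal they share was not tested.

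In all 3 lines the 76 probes ended well below their level with LIF, as the rule asked (processed ratios). In the median they fell by more in Oct4 and ZHBTc4 than in Oct4 VP2, an order that the rule did not set. The median 120 h change was -1.58 in Oct4 VP2 (2.99-fold lower), -2.44 in Oct4 (5.43-fold) and -2.54 in ZHBTc4 (5.82-fold). The deepest falls were -3.23, -4.65 and -4.94 in that order. Over all 25030 probes the medians were -0.01, -0.06 and -0.08. The smallest of a probe's 3 falls was in Oct4 VP2 for 54 members, and the largest was in ZHBTc4 for 38, in Oct4 for 30 and in Oct4 VP2 for 8. The 120 h arrays lay below the arrays with LIF, without overlap, for 65 members in Oct4 VP2 and for 75 in each of Oct4 and ZHBTc4. The rule asked for these falls, and no such count over all probes is given, so nothing is read from it. In limma's moderated test on loess ratios, a call needs a 2-fold difference and, after Benjamini-Hochberg adjustment, p under 0.05. Falls at 120 h were called for 1.83%, 5.54% and 6.56% of all 31727 probes tested. The rule used this contrast, so nothing is read from the members' counts beside those shares.

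At 48 h the lines were less alike than the averaged limit may lead a reader to think. The median 48 h change of the members was -0.27 in Oct4 VP2, -0.27 in Oct4 and -1.05 in ZHBTc4. In ZHBTc4, 48 of 76 probes were already below -0.8, against 11 in Oct4 VP2 and 8 in Oct4. Above 0.8 stood 6 probes in Oct4 VP2, 4 in Oct4 and 0 in ZHBTc4. The 48 h change was the most negative in ZHBTc4 for 57 members, and it lay within 0.8 in each line separately for 16. As a share of its own 120 h change, a probe's 48 h change had a median of 14.2% in Oct4 VP2, 8.28% in Oct4 and 36.7% in ZHBTc4. The 76 thus hold probes that fell after 48 h in the lines with a construct and in part before 48 h in ZHBTc4.

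**Figure D1:**
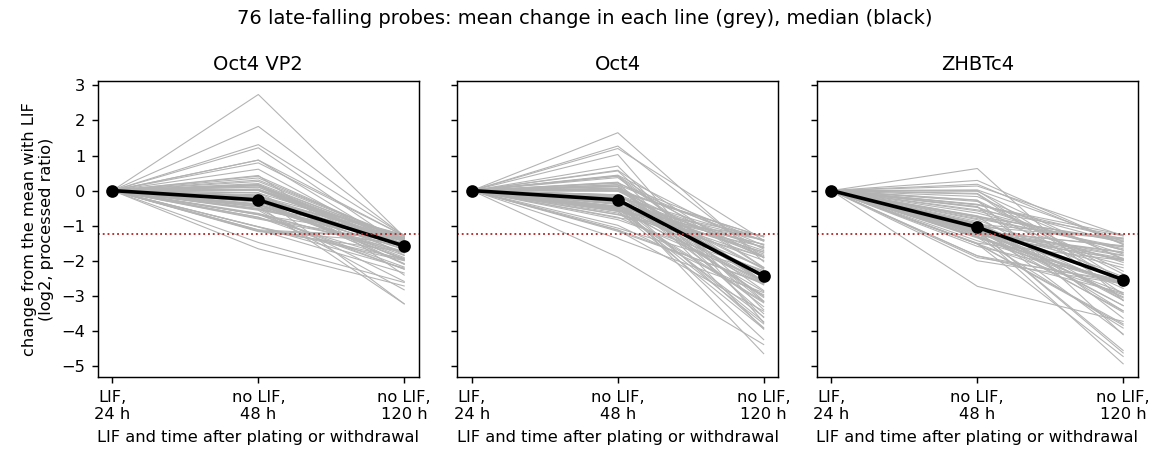
Change of each of the 76 probes from the mean with LIF (vertical axis, log2, processed ratio) at 48 h and 120 h without LIF, in 3 panels by line. Grey lines are probes (means of 2 arrays), the black line is their median, and the dotted line is the limit at a 2.38-fold fall. The median is near 0 at 48 h in Oct4 VP2 and Oct4 (-0.27 in each) and at -1.05 in ZHBTc4.

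The replicate arrays differed by less than the falls at 120 h in the median over members, and ZHBTc4 gives the comparison across scan sessions. Against its mean with LIF, the median change at 120 h was -2.54 on replicate 1, from the first session, and -2.29 on replicate 2, from the second. At 48 h the medians were -1.19 and -0.82. In Oct4 VP2 the 120 h medians were -1.39 and -1.98, and in Oct4 they were -2.35 and -2.53. Oct4 VP2 was scanned within a single session. The Oct4 arrays with and without LIF were scanned in different sessions. Their labels also differ, as those with LIF say knock-in and mention no tetracycline or puromycin. Session, labelled treatment and LIF therefore cannot be told apart within that line.

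Most of the members were above the reference pool with LIF, and many were still above it at the end. The median level in Oct4 VP2 was 1.95 with LIF, 2.03 at 48 h and 0.42 at 120 h (processed log2 ratio to the reference). In Oct4 it went from 1.35 over 0.97 to -0.98, and in ZHBTc4 from 2.17 over 1.20 to 0.11. Members above the reference numbered 58, 56 and 47 in Oct4 VP2, 56, 53 and 23 in Oct4, and 58, 52 and 39 in ZHBTc4. At 120 h the level was higher in Oct4 VP2 than in Oct4 for 71 of 76 probes, with a median difference of 1.26 (-0.02 over all probes of the value table). With LIF it was higher in Oct4 VP2 for 64, with a median difference of 0.48 (0 over all probes). The rule used these levels, and no such counts over all probes are given, so nothing is read from the counts. At 120 h, 26 members were not well above background on either Oct4 array, so the limit of detection bears on the size of that difference.

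The deepest mean fall was that of Z00031177-1. Its processed ratios in Oct4 VP2 were -0.95 and -0.65 with LIF, -0.84 and -1.01 after 48 h, then -3.83 and -4.24 after 120 h. In Oct4 they were -0.61 and -0.99, then -1.51 and -0.70, then -5.90 and -5.00. In ZHBTc4 they were 1.27 and 1.24, then -0.73 and 0.21, then -4.07 and -2.87. All 120 h arrays lay below all arrays with LIF, and with LIF both ZHBTc4 arrays stood above those of the other lines. This probe carries AATAAA, was well above background on all 18 arrays, and also met the rule on loess ratios.

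Next was Z00070838-1. In Oct4 VP2 its processed ratios were 0.15 and 0.52 with LIF, -0.05 and -0.17 after 48 h, then -2.70 and -3.11 after 120 h. In Oct4 they went from 0.41 and -0.06 over -0.25 and 0.26 to -2.80 and -3.48. In ZHBTc4 they went from 2.11 and 1.87 over 0.61 and 1.12 to -2.88 and -2.38. The mean 48 h change was -0.44 in Oct4 VP2 and -0.17 in Oct4, while ZHBTc4 started higher and stood at -1.13 by then. At 120 h all 6 arrays lay between -3.48 and -2.38, below every earlier array. In Oct4 it was not well above background on either 120 h array, which bounds the fall there at a fold of at least 2.20 from the Cy3 signal. This probe did not meet the rule on loess ratios. Its 120 h changes on that scale were -1.12 in Oct4 VP2, -0.84 in Oct4 and -2.35 in ZHBTc4.

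**Figure D2:**
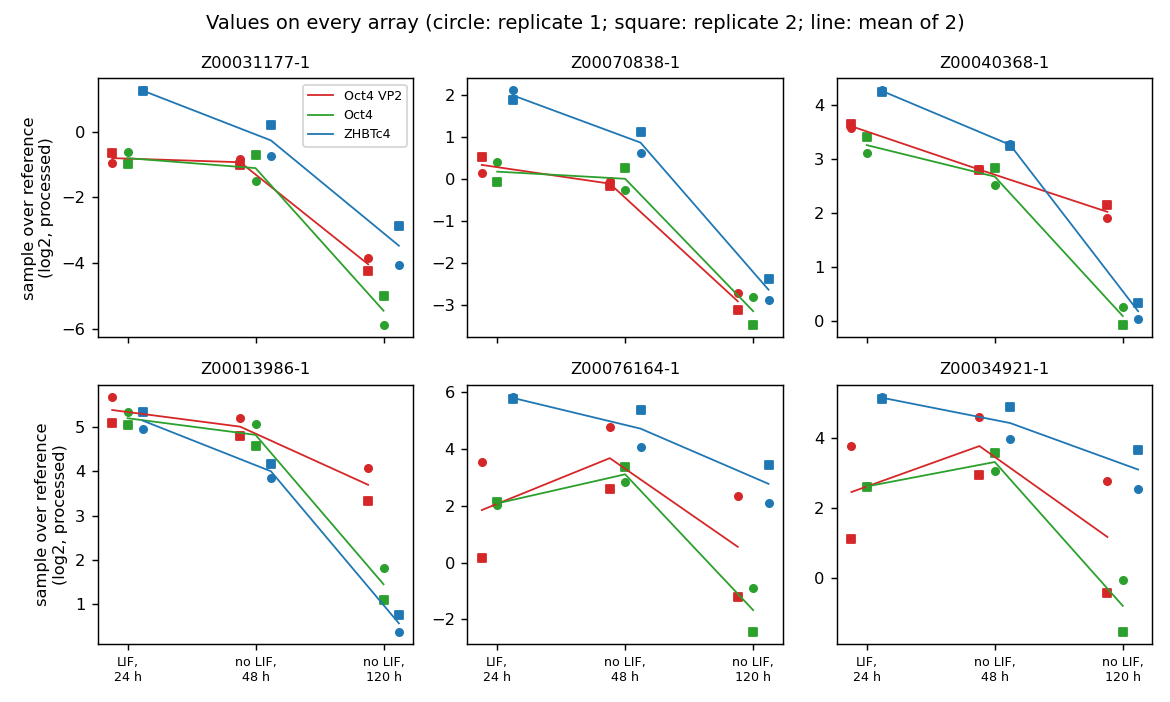
Level of 6 members on every array (vertical axis, log2 of sample over reference, processed ratio) with LIF at 24 h and without LIF at 48 h and 120 h. Colours are lines, circles are replicate 1, squares are replicate 2, and lines join means of 2 arrays. Z00031177-1 ends between -5.90 and -2.87 in every line, whereas Z00040368-1 ends at 1.90 and 2.14 in Oct4 VP2 and between -0.09 and 0.32 in the other lines.

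How the lines differed with LIF, before any withdrawal, was tested. The rule used changes within a line and not differences between lines, but each change was measured from these arrays with LIF. A higher level with LIF gives a larger fall, so the selection can shape these differences. The arrays are the same ones, so the counts are read beside the share over all probes and no further. Between Oct4 and ZHBTc4, 19 of 75 members differed in limma's test, where 2.17% of all probes did, and 18 of the 19 were lower in Oct4, as were 1.65% of all probes. Between Oct4 VP2 and ZHBTc4, 15 members differed (3.38% of all probes), 12 of them lower in Oct4 VP2 (2.18% of all). Between Oct4 VP2 and Oct4, 7 differed (4.09% of all probes), 6 of them higher in Oct4 VP2 (2.24% of all). Of the tested probes that fell earlier in all lines, 16.2%, 24.6% and 32.4% were called in these comparisons, in the same order. The members' shares were 25.3%, 20% and 9.33%, so shares above those over all probes are not particular to the members. The comparisons share arrays, so they are not independent of each other. The labels of Oct4 with LIF mention no tetracycline or puromycin, unlike those of Oct4 VP2, so line and labelled treatment cannot be told apart there. On processed ratios the split for Oct4 VP2 against ZHBTc4 turned to 6 higher and 4 lower, and with the scan session as a block the count fell to 6. For Oct4 against ZHBTc4 both groups with LIF lie in the second session, and that session alone gave 20 members, 19 of them lower in Oct4. The count for Oct4 VP2 against Oct4 was 18 on processed ratios (9.08% of all probes there), 17 of them higher in Oct4 VP2. The other counts under changed settings have no share over all probes beside them. They show only how far the main counts moved.

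The largest of these differences was at Z00076164-1. Its loess ratios with LIF were 5.79 and 5.71 in ZHBTc4, against 1.81 and 1.95 in Oct4 and, for Oct4 VP2, 3.32 and 0.03. ZHBTc4 was higher than both other lines without overlap, and the Oct4 VP2 arrays lay far apart. Oct4 VP2 was lower than ZHBTc4 by a difference of -4.07 ± 1.1 (SE, limma's test, adjusted p = 0.028), and Oct4 by -3.87 ± 1.1 (adjusted p = 0.048). The first call was lost under 7 of 26 alternatives and the second under 14 of 27, each with its direction kept. The first was lost on processed ratios, with session or slide as a block, and without 1 of 3 of the arrays with LIF. Its adjusted p ranged from 0.011 to 0.33, and that of the second from 0.0016 to 0.21. The second was lost on processed ratios, with no filter, with slide as a random block, and without any 1 of 10 of the Oct4 or ZHBTc4 arrays.

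The members with the deepest mean falls differed in the same comparisons. With LIF, Z00031177-1 was lower than in ZHBTc4 by a difference of -1.89 ± 0.25 in Oct4 VP2 (limma's test, adjusted p = 0.00042) and of -1.90 ± 0.25 in Oct4 (adjusted p = 0.00062). For Z00070838-1 the differences were -1.33 ± 0.17 (adjusted p = 0.00043) and -1.40 ± 0.17 (adjusted p = 0.00047). These 4 calls held under every alternative that was run, with adjusted p of at most 0.019. Their 120 h changes were also smaller in Oct4 VP2 than in ZHBTc4, by 1.52 ± 0.35 for Z00031177-1 (limma's test, adjusted p = 0.0069, lost on processed ratios at 0.12) and by 1.23 ± 0.25 for Z00070838-1 (adjusted p = 0.0031, at most 0.039 over its alternatives). Both probes thus started from a higher level in ZHBTc4, on the arrays as labelled. Both were picked for their deep falls, which are measured from these levels with LIF. The p-values here therefore describe these probes and support nothing further.

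Between Oct4 VP2 and Oct4 with LIF, the largest difference past the threshold was at Z00011953-1. It was the 1 member called lower in Oct4 VP2 there, while 6 were called higher. The probe is 1 of the 14 members whose Oct4 VP2 arrays stood far apart at every time. Its reference signal was well above background on 3 of the 18 arrays. Its loess ratios were 1.05 and 0.21 in Oct4 VP2, 2.24 and 2.17 in Oct4, and 2.81 and 2.95 in ZHBTc4. Oct4 VP2 lay below Oct4 on both arrays, by a difference of -1.57 ± 0.34 (limma's test, adjusted p = 0.006). On processed ratios the Oct4 VP2 arrays stood at 4.33 and 1.41 against 4.49 and 3.89, and the call was lost there, with session as a block, and without replicate 2 of Oct4 VP2 with LIF (adjusted p from 0.0021 to 0.49 over the alternatives). The probe was not well above background at 120 h in Oct4 or ZHBTc4, which gives falls of at least 5.16-fold and at least 7.91-fold in Cy3.

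How far the members had fallen by 120 h was compared between lines. Since each 120 h change was bounded by the rule, the difference between lines is read only beside the share over all probes. The p-values given for single members' 120 h changes rest on values the rule used. They describe those probes and support nothing further. Between Oct4 VP2 and ZHBTc4 the 120 h change differed for 14 of 75 members in limma's test (10.7% of all probes), and 13 of the 14 had fallen less in Oct4 VP2 (5.7% of all in that direction). Between Oct4 and ZHBTc4 it differed for 8 (3.86% of all probes), 7 of them with the smaller fall in Oct4 (2.01% of all in that direction). Between Oct4 VP2 and Oct4 it differed for 6 (10.6% of all probes), 5 of them with the smaller fall in Oct4 VP2 (5.27% of all in that direction). Of the tested probes that fell earlier in all lines, 12.7%, 8.45% and 16.2% were called in these comparisons, in the same order. The 6 of 75 is no more than the share over all probes, and on processed ratios it became 11, where 16.7% of all probes were called. Where a line was not well above background on either 120 h array, its fall has only a lower bound and the size of the difference cannot be read. This holds for 5 of the 8 members called between Oct4 and ZHBTc4, for 1 of the 14 and for 1 of the 6. For Oct4 against ZHBTc4 the count was 4 on processed ratios, split 2 and 2. It lay between 3 and 5 without any 1 of 6 arrays, which are replicate 1 of ZHBTc4 at 120 h, both Oct4 arrays at 120 h, both ZHBTc4 arrays with LIF and replicate 1 of Oct4 with LIF. These counts have no share over all probes beside them and show only how far the main count moved.

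Z00040368-1 had the largest of these differences. Its loess ratios in Oct4 VP2 were 3.13 and 3.27 with LIF, 2.42 and 2.34 after 48 h, then 1.54 and 1.76 after 120 h. In Oct4 they went from 2.70 and 3.04 over 2.10 and 2.40 to 0.15 and -0.11. In ZHBTc4 they went from 3.99 and 3.95 over 2.77 and 2.87 to -0.08 and 0.20. At 48 h the 6 arrays lay between 2.10 and 2.87, and at 120 h the Oct4 VP2 arrays stood above all others. Its 120 h change was smaller in Oct4 VP2 than in ZHBTc4 by a difference of 2.36 ± 0.21 (limma's test, adjusted p = 2e-05), and smaller than in Oct4 by 1.30 ± 0.21 (adjusted p = 0.00095). The first held under all 26 alternatives. The rule used this probe's 120 h changes, and the probe was picked for its large difference. Both p-values therefore describe the probe and support nothing further. The reference signal of this probe also moved, with a Cy5 change at 120 h of -0.50 in Oct4 VP2, -0.48 in Oct4 and -0.87 in ZHBTc4. The part of that in the result was not tested.

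Z00013986-1 showed the same order. Its loess ratios in Oct4 VP2 began at 3.75 and 3.32 and ended, after 120 h, at 2.55 and 1.57. Those of Oct4 began at 3.76 and 3.51 and ended at 0.32 and 0.22. Those of ZHBTc4 began at 3.59 and 3.98 and ended at 0.01 and 0.20. The lines overlapped with LIF and parted at 120 h, where Oct4 VP2 was higher on both arrays. Its fall was smaller in Oct4 VP2 than in Oct4 by 1.90 ± 0.48 (limma's test, adjusted p = 0.012), a call lost only with session as a block (adjusted p = 0.073, the highest over its 26 alternatives), and smaller than in ZHBTc4 by 2.21 ± 0.48 (adjusted p = 0.0053).

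At Z00071412-1 the lines differed at the start. This probe is also 1 of the 14 members whose Oct4 VP2 arrays stood apart on processed ratios. Its loess ratios with LIF were 0.22 and 0.08 in Oct4, 0.68 and 0.24 in Oct4 VP2, and 2.04 and 2.03 in ZHBTc4, and at 120 h all 6 arrays lay between -0.10 and 0.34. On this scale ZHBTc4 had the higher start, and Oct4 at 120 h was not well above background on either array, so its fall there is known only as at least 1.16-fold. The fitted difference between the 120 h changes of Oct4 and ZHBTc4 was 1.69 ± 0.33 (limma's test, adjusted p = 0.008), and the true size of the difference cannot be read from it. On processed ratios, where Oct4 went from 1.33 and 1.5 to 0.15 and -1.11, the difference was 0.79 and the call was lost (adjusted p = 0.66). The value table, which holds the same ratios, lost it too. The opposite order was seen in Z00060985-1, named after its values were seen, whose fall was larger in Oct4 VP2 than in Oct4 by a difference of -1.20 ± 0.19 (limma's test, adjusted p = 0.00087). Its loess ratios with LIF were -3.10 and -2.75 in Oct4 VP2 and -3.95 and -3.94 in Oct4. On processed ratios the order was turned, with mean changes of -2.83 in Oct4 VP2 and -3.05 in Oct4.

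The spread of the 48 h changes between lines is given as values only, since the rule held their mean over the lines between limits, so that a high change in 1 line goes with a low one in another. 2 members, chosen after their values were seen, show how it looked. In Oct4 VP2, Z00000687-1 had loess ratios of 1.37 and 1.57 before withdrawal and 2.11 and 1.53 by 48 h. In ZHBTc4 they were 2.41 and 2.39, then 0.65 and 1.07, lower on both arrays. Z00070340-1 went the other way. Its loess ratios in Oct4 VP2 were -0.16 and 0.21 with LIF, -1.27 and -1.48 by 48 h, then -1.80 and -2.33 by 120 h. In Oct4 they were 0.07 and -0.25 with LIF, then 0.11 and 0.03 by 48 h. Part of its fall in Oct4 VP2 thus came before 48 h, and the mean 48 h change (processed) was 0.17 in Oct4 and 0.29 in ZHBTc4.

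**Figure D3:**
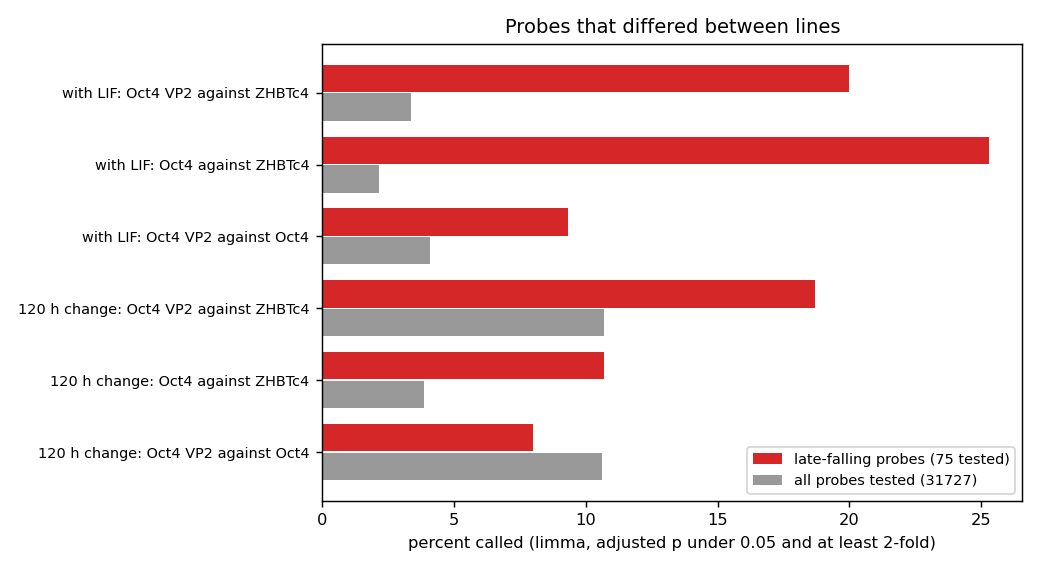
Percent of probes called different between lines (limma, adjusted p under 0.05 and at least 2-fold) in 6 comparisons, for the 75 members tested (red bars) and for all 31727 probes tested (grey bars). The red bar is longer for Oct4 against ZHBTc4 with LIF (19 of 75 members against 2.17%) and shorter for the 120 h change of Oct4 VP2 against Oct4 (6 of 75 against 10.6%).

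Within Oct4 VP2 the arrays of replicate 1 and replicate 2 stood far apart for a group of 14 members. In these, replicate 1 was higher than replicate 2 by more than 1 (log2, processed ratio) with LIF, at 48 h and at 120 h, which is 18.4% of the members and 0.479% of the value table. The rule did not use such gaps, but the group was found by looking at the values, and no test was made. In Oct4 and in ZHBTc4, 0 members had such a gap at all 3 times, against 25 probes of the whole value table in each. The reverse gap in Oct4 VP2 was found for 1 member. Gaps with LIF ran from 1.08 to 4.25 in the 14.

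All 7 members that share a run of bases on the same strand belong to this group. Z00076164-1 is an example, with processed ratios in Oct4 VP2 of 3.54 and 0.17 with LIF, 4.78 and 2.59 after 48 h, then 2.34 and -1.22 after 120 h. Replicate 1 was higher each time, and the fall from LIF to 120 h was of similar size on both replicates. Z00034921-1, with which it shares a 12-base run, had 3.78 and 1.13, then 4.58 and 2.95, then 2.76 and -0.41. The third of that chain, Z00075719-1, had 3.35 and 0.70, then 4.33 and 2.16, then 1.93 and -1.07. All of them went up at 48 h in Oct4 VP2 before they fell, by 1.83, 1.31 and 1.22 on the mean of 2 arrays. In Oct4 they also went up at 48 h, by 1.03, 0.70 and 0.12, while in ZHBTc4 they fell by 1.09, 0.72 and 1.35. The Cy5 change of Z00034921-1 in ZHBTc4 was -0.51 at 48 h and -1.20 at 120 h, and its part in that probe's values was not tested.

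Z00034732-1, named after its values were seen, had a gap of nearly the same size at each time. The processed ratios of the Oct4 VP2 arrays were 0.17 and -3.46 at the start, 0.13 and -3.55 by 48 h and -1.78 and -5.72 by 120 h, which makes 3.63, 3.68 and 3.94. In ZHBTc4 its arrays with LIF were 0.16 and 0.16, near the level of replicate 1 of Oct4 VP2, and in Oct4 they were -1.60 and -1.39. The largest gap with LIF was in Z00071195-1, with 5.79 and 1.54 with LIF and 4.56 and 0.14 at 120 h. It was also the member that rose most at 48 h, by 2.74 on the mean of its Oct4 VP2 arrays, and the reference was not well above background for it on any array.

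The 14 bear on the results above. They include 5 of the 6 members with a 48 h change above 0.8 in Oct4 VP2, and 7 of the 12 called lower in Oct4 VP2 than in ZHBTc4 with LIF. They also include 6 of the 18 called lower in Oct4, where the replicates did not stand apart in this way. Their median 48 h change was 0.18 in Oct4 VP2, against -0.32 in the other 62, and their 120 h medians were -1.42 and -1.62. In ZHBTc4 the 48 h medians were -1.20 and -0.98. Without replicate 1 of Oct4 VP2 at 120 h, which lay nearer the LIF level than replicate 2, the rule took 117 probes in place of 76.

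**Figure D4:**
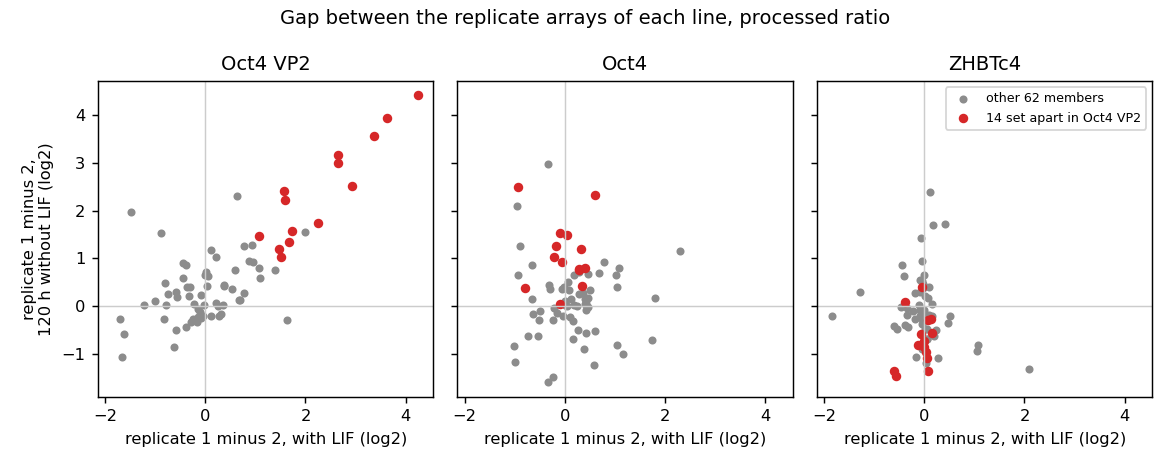
Replicate 1 minus replicate 2 with LIF (horizontal axis) and at 120 h without LIF (vertical axis), in log2 of the processed ratio, for the 76 members in 3 panels by line. Red points are the 14 members set apart in Oct4 VP2, where their gap with LIF runs from 1.08 to 4.25. In ZHBTc4 the same 14 lie between -0.60 and 0.16 on the horizontal axis.

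How the ratio was computed decided much of the size of the falls. On loess ratios the median 120 h change was -0.99 in Oct4 VP2, -1.18 in Oct4 and -1.30 in ZHBTc4, and 71 of 76 probes were below 0 in all lines. A fall of 2.38-fold or more was kept by 23, 35 and 42 members, and by 18 in all 3 lines. The whole rule on loess ratios was met by 16 of the 76 and by 27 probes in all. With Cy3 alone, leaving the reference out, it was met by 34 probes, 16 of them members. All 16 that met it on loess ratios were among the 38 brighter members, and 0 were among the 38 dimmer ones.

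The 2 scales parted more in the dimmer members than in the brighter ones. In the brighter members the median 120 h change in ZHBTc4 was -2.50 on processed and -2.20 on loess ratios. In the dimmer ones it was -2.58 and -0.72. In Oct4 VP2 the brighter members had -1.58 and -1.33, and the dimmer ones -1.58 and -0.54. In Oct4 the scales parted in the brighter members as well, at -2.62 and -1.72, and the dimmer ones had -2.20 and -0.45. The offset of 50 that is added in the normexp step brings the ratio of dim spots nearer to 0. The scanner software had replaced the sample signal by a surrogate on at least 1 array for 19 members, and the reference signal for 16.

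Many members were at the limit of detection at the end. At 120 h, 5 members in Oct4 VP2, 26 in Oct4 and 22 in ZHBTc4 were not well above background on either array. Where such a probe was measured with LIF, its fall has only a lower bound, taken from the Cy3 signal after loess and quantile scaling between arrays. The bounds ran from at least 1.08-fold to at least 5.16-fold for 21 members in Oct4 (median 1.67) and from at least 1.1-fold to at least 7.91-fold for 22 in ZHBTc4 (median 1.48). For 4 members in Oct4 VP2 they ran from 1.09 to 1.53. Without balanced dye swaps these bounds are open to dye bias. In 10 members the reference was not well above background on any array, so the denominator of their processed ratios was at the limit of detection throughout.

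**Figure D5:**
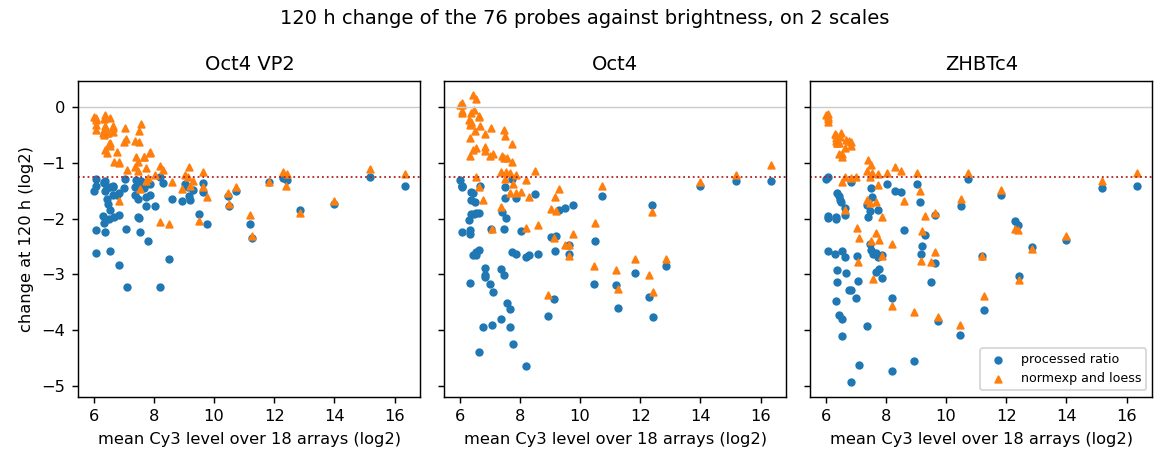
Change at 120 h (vertical axis, log2) against the mean Cy3 level over 18 arrays (horizontal axis, log2) for the 76 members, by line. Circles are processed ratios and triangles loess ratios, and the dotted line is the limit at a 2.38-fold fall. The scales lie closer together in the brighter members than in the dimmer ones. In the dimmer ones the median in ZHBTc4 is -2.58 on processed and -0.72 on loess ratios. In Oct4 the scales also part in the brighter members (-2.62 and -1.72).

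In bright probes the fall is read from signals far above background. Z00059354-1, among the brightest with a Cy3 level of 15.18 (chosen after its values were seen), had processed ratios of 1.20 and 1.35 with LIF, 1.11 and 0.92 after 48 h, then -0.01 and 0.04 after 120 h in Oct4 VP2. In ZHBTc4 it went from 0.57 and 0.54 over -0.21 and -0.14 to -1.04 and -0.77, and in Oct4 from 0.81 and 0.41 over 0.69 and 0.53 to -0.64 and -0.79. The lines fell by nearly the same amount, from different levels. In the reference channel, the members' median Cy5 changes lay between -0.07 and 0.05 over the lines and times. Z00070078-1 alone had a Cy5 fall of 2.38-fold or more, with changes of -1.33 at 48 h and -1.26 at 120 h in Oct4 VP2.

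The limits of the rule fall within a continuum. Just inside the 120 h limit were Z00025453-1 (-1.255 in Oct4 VP2) and Z00037522-1 (-1.262 in ZHBTc4), and just outside were Z00026729-1 (-1.248) and Z00053049-1 (-1.247), both through Oct4 VP2. Just inside the 48 h limit were Z00075861-1 (-0.799) and Z00040368-1 (-0.796), and just outside Z00007382-1 (-0.804) and Z00074470-1 (-0.809). In all, 219 probes fell 2.38-fold or more in each line by 120 h. The other 143 had a mean 48 h change below -0.8, and 0 had one above 0.8. In these earlier probes the 48 h share of the 120 h change had medians of 50.9%, 54.6% and 71.5%. A rise of the same size in all lines was found for 433 probes, of which 167 (38.6%) had a mean 48 h change within 0.8, against 34.7% of the falling ones.

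Over the 18 arrays, each member's processed ratio correlated with the members' mean with a Pearson r between 0.501 and 0.970 (median 0.836), as a description of values the rule selected. The probes outside the set with the most similar course were Z00003784-1 (r = 0.978), Z00034605-1 (0.968) and Z00056701-1 (0.965), over the same 18 arrays, which share lines, slides and reference. Their falls at 120 h were smaller than the limit. In Z00003784-1 the changes were -0.71, -1.05 and -1.02 in Oct4 VP2, Oct4 and ZHBTc4.

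The probe sequences of the members were searched for 2 hexamers, AATAAA and ATTAAA, which are the common signals for cleavage and polyadenylation near the 3′ end of a messenger RNA. On the strand as printed, AATAAA was found in 14 members (18.4%, against 7.90% of the 25030 probes) and ATTAAA in 5 (6.58% against 3.37%), with 0 members holding both. The 14 include Z00077050-1 and Z00051485-1, which share 34 bases. On the other strand they were found in 5 (6.58% against 3.62%) and 4 (5.26% against 2.53%). A match says only that these letters lie in the probe. Median GC content was 45.0% in the members and 43.3% in the value table. No stretch of 24 bases of a member was found in the 32851 RefSeq promoter windows searched (assembly GRCm38.p6) or in the miRNA hairpins (0 of 76).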

How the data were processed

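RNA of 18 cultures was measured on 2-colour Agilent arrays (sample Cy3, reference Cy5, 2.5 μg of RNA). Agilent Feature Extraction 9.5.1.1 produced the scanner files, per the file headers, and the authors deposited them with the intensity of every spot and with dye-normalised processed signals. The authors' deposited log10 ratio is Cy5 over Cy3, so its sign was turned. The authors' deposited value table is on a log10 scale and was multiplied by 3.3219 to give log2. Centred per probe, 100% of its values lay within 0.001 of the processed log10 ratio of sample over reference. Its constant per probe is unknown, and its column medians lie between 2.33 and 2.36.

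The members, and every list and test here, were chosen with earlier results of these data known. Loess ratios were made in limma 3.58.1 (R 4.3.3) with normexp (offset 50) and loess within arrays, with control and flagged spots at weight 0. A probe was tested where 1 or more groups had it well above background in Cy3 on both of their arrays and every group had a value. This left 31727 of 42006 probes and 75 of the 76 members. One model with a mean for each of 9 groups was fitted with lmFit and eBayes (9 residual and 3.69 prior degrees of freedom). A call needed a Benjamini-Hochberg adjusted p under 0.05 over all probes tested and a 2-fold difference. The fit was tested on simulated data. With 2 arrays a group the precision is limited by their number. The ± after a tested difference is its standard error.

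Alternatives were the value table, processed signals, Cy3 alone, no filter, slide, session and replicate blocks, no fold minimum, other limits of the rule and leaving out each array. Probes named are the 2 with the deepest mean fall, the largest difference past the threshold in each planned comparison, the 3 likest other probes and the neighbours of the limits. Differences between lines in the 48 h change were fitted as well and are not given as tests, since the rule used those changes. The rule also used the 120 h changes, so tests of their differences are read only beside the share over all probes. Others named are said to be chosen after their values were seen. The files pair no probe with a gene, and 0 probe identifiers occur in the gene table used here, so the gene and marker lists were not analysed here, nor were positions in the genome.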

Additional observations from a re-analysis of the deposited data

Results flagged for a closer look

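The following results come from a test of the difference between the changes of 1 line and another. The rule used each 120 h change, so the counts are read only beside the share over all probes. The 120 h change differed for 14 of 75 members between Oct4 VP2 and ZHBTc4 (10.7% of all probes), for 8 between Oct4 and ZHBTc4 (3.86%), and for 6 between Oct4 VP2 and Oct4 (10.6%), in limma's test. The last is 8% of the members and below the share over all probes, so it is no result about the members. Of the tested probes that fell earlier in all lines, 12.7%, 8.45% and 16.2% were called, in the same order of comparisons. The largest differences were 2.36 at Z00040368-1, 1.69 at Z00071412-1 and 1.90 at Z00013986-1, in that order of comparisons. The size at Z00071412-1 cannot be read, since Oct4 was not well above background at 120 h there. Each group has 2 arrays, too few for a check of single outlying arrays.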

How the results depend on the processing

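The rule took 76 probes on processed ratios and 27 on loess ratios (16 of them the same), 47 with a normexp offset of 0, an alternative chosen after seeing the data (32 the same), and 34 with Cy3 alone. A 120 h limit of -1 gave 164 and one of -1.5 gave 36, and a 48 h limit in every line gave 16. Leaving out 1 array gave 69 to 117. Counts of members called, here and in the next paragraph, have no share over all probes beside them, and that share changes with the setting. They show how far the main counts moved and are no result about the members. With LIF, Oct4 VP2 against ZHBTc4 gave 6 with session as a block and 33 with no fold minimum (main count 15), and Oct4 VP2 against Oct4 gave 18 on processed signals, 18 on the value table and 27 with no fold minimum (main 7). For the 120 h change, no fold minimum gave 23 for Oct4 VP2 against ZHBTc4 and 12 for Oct4 VP2 against Oct4, and processed signals and the value table gave 4 each for Oct4 against ZHBTc4 and 11 each for Oct4 VP2 against Oct4. Leaving out 1 array gave 10 to 18, 13 to 20 and 5 to 9 with LIF (Oct4 VP2 against ZHBTc4, Oct4 against ZHBTc4, Oct4 VP2 against Oct4), and 10 to 16, 3 to 9 and 6 to 8 for the 120 h change.

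The labels do not say that a replicate number marks a shared clone or day. Within a line, the deviations of same-numbered arrays correlated at 0.52, 0.29 and 0.50 for the 3 pairs of times in Oct4 VP2, so arrays of one number deviated together there. For Oct4 the lowest was -0.23 and the highest 0.22. For ZHBTc4 these were -0.037 and 0.70. With the replicate block the counts were 16, 19, 7, 14, 8 and 6 for the 6 comparisons, and no count moved by more than 1.5 times. Brightness limits the falls of the dimmer members, and session limits comparisons that set Oct4 VP2 against lines scanned in the second session.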
